A study of Caenorhabditis elegans with 2 samples.

Results

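The DREAM complex genes of Caenorhabditis elegans were examined as possible targets of K11D2.4, a protein that RefSeq annotates with a C2H2-type zinc finger domain, whose binding was mapped by chromatin immunoprecipitation and sequencing (ChIP-seq). The 8 genes were listed by name as subunits of the complex: lin-35, efl-1, dpl-1, lin-9, lin-37, lin-52, lin-53 and lin-54. The set was chosen by its promoter peaks in these same files, so its peak counts are given as a description and no test was made of them. The 8 genes stand among 19973 protein-coding genes on the 6 nuclear chromosomes.

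DREAM, called DRM in worms, joins a pocket protein of the retinoblastoma family, an E2F and DP pair that binds DNA, and the MuvB core. It is known for holding cell cycle genes silent in cells that do not divide and for keeping germline genes off in the worm soma. Several of its subunits were found as class B synthetic multivulva (synMuv) genes, whose loss, combined with loss of a class A gene, gives worms extra vulvae.

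The libraries came from whole young adults of strain RW12320, in which CRISPR had added TY1, EGFP and 3xFLAG tags to the K11D2.4 gene at its own locus. Both replicates carry this insertion and come from the same strain, and an antibody to GFP was used. The worms had been synchronised by bleaching and starvation as first-stage larvae and were 62 hours old. There was 1 group with 2 biological replicates, numbered 1 and 2. No control library was analysed here, and whole animals mix germline with soma, so the tissue of a peak cannot be told.

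Each peak carries the authors' signal, a peak height of unstated scaling, and a score of at most 1000 that was read as following the irreproducible discovery rate (IDR). Read depth is unknown. The main list is the authors' conservative list from both replicates pooled, with 1927 peaks. A second pooled list has 1984 peaks, and the replicates' own thresholded lists have 959 (replicate 1) and 1141 (replicate 2). The longer ranked lists, of 72582 peaks for the pool, 41734 for replicate 1 and 42705 for replicate 2, also hold weak peaks. A promoter peak is a peak whose summit lies from 1000 bp upstream to 200 bp downstream of a transcript start. Positions are on ce11, and offsets from a start are negative upstream.

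Of the 8 DREAM genes, 6 had a promoter peak in the main list: lin-35, efl-1, lin-9, lin-52, lin-53 and lin-54. The same was true of 5.77% of all protein-coding genes. In the second pooled list the count was 4 of 8, beside 5.96% of all genes. It was 4 of 8 in replicate 1's thresholded list (3.39% of all genes) and 4 of 8 in that of replicate 2 (4.07%). The genes lin-9, lin-53 and lin-54 had a peak in all 4 of these lists, while lin-35 was missing from replicate 1, lin-52 from replicate 2 and the second pooled list, and efl-1 from all but the main list. The ranked lists give little contrast, since a promoter peak was present at 7 of 8 DREAM genes in each and at 57.9% (pool), 45.0% (replicate 1) and 46.2% (replicate 2) of all genes.

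**Figure D1:**
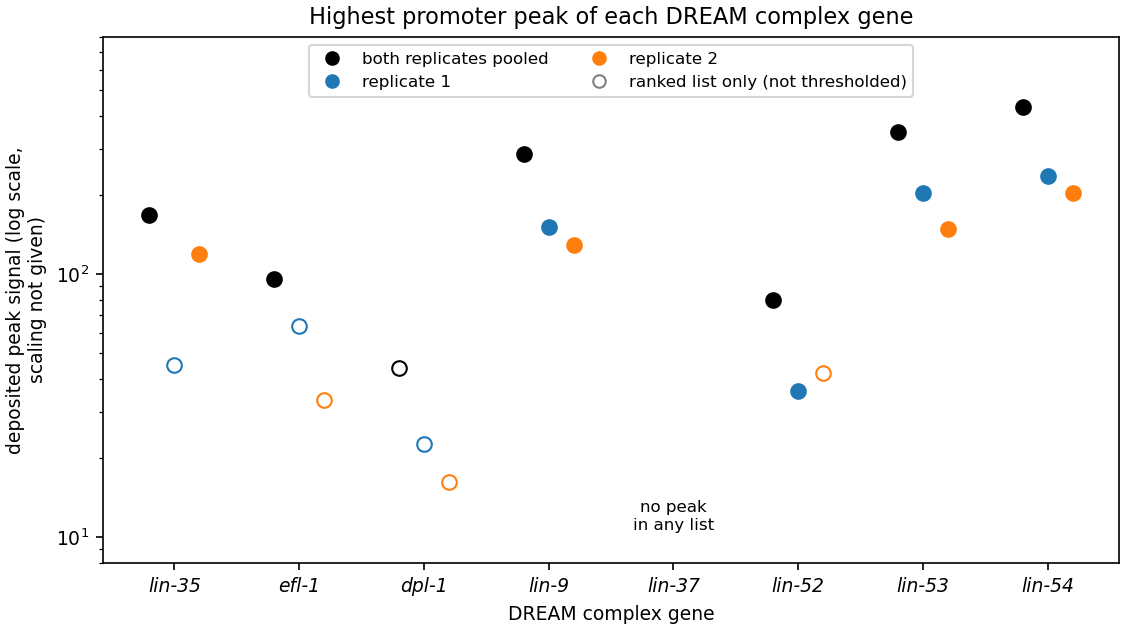
Deposited signal (log axis) of the highest promoter peak of each DREAM complex gene in the pooled ranked list (black) and the ranked lists of replicate 1 (blue) and replicate 2 (orange). Filled points are also in the matching thresholded list, open points are in the ranked list only; lin-54, lin-53 and lin-9 are filled throughout, dpl-1 is open throughout and lin-37 has no peak.

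The gene lin-35 encodes the only pocket protein of the worm, the homologue of the retinoblastoma protein. Its main peak, at chrI:5807374-5807697, had a signal of 168 and ranked 345 of 1927. The signal was 45.2 in replicate 1's ranked list and 119 in that of replicate 2. Only replicate 2 passed its own threshold there, with a score of 1000 against 346 in replicate 1. Replicate 2 was thus 2.63-fold higher, a log2 ratio of replicate 1 to replicate 2 of -1.40. Of the 1904 main peaks found in both ranked lists, 0.158% had a log2 ratio at least that far from 0. The summit lay at -173 bp from the lin-35 start (WBGene00003020, plus strand) and at -245 bp from that of vps-51, a gene of the membrane traffic machinery that runs the other way. Only 417 bp separate lin-35 and vps-51, so both genes have the same peak in their promoters. In replicate 1 the summit was shifted, to -227 bp from lin-35 and -191 bp from vps-51.

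The DP gene dpl-1 (WBGene00001061), whose product pairs with E2F, had no promoter peak in any thresholded list. Its highest promoter peak in the pooled ranked list had a signal of 44.2, a score of 89 and rank 10016 of 72582, at -292 bp. In replicate 1 the highest was 22.6, at -281 bp, and in replicate 2 it was 16.3, at -911 bp. The peak nearest to the first position in replicate 2, at -289 bp, had 13.8. The median of all ranked peaks was 19.4 in replicate 1 and 18.1 in replicate 2, so the highest dpl-1 peak was above it in replicate 1 and below it in replicate 2. The dpl-1 start lies inside T23G7.2, a gene on the opposite strand, and the nearest main summit was at -56824 bp.

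The E2F gene efl-1 (WBGene00001161, chromosome V, minus strand) had 2 main peaks in its promoter. The higher, at chrV:16965690-16966013, had a signal of 95.8, rank 1056 and a score of 952, with its summit at -177 bp. The same peak had 63.6 in replicate 1, with a score of 591, and 33.2 in replicate 2, with a score of 43. Neither replicate's own list passed it. Replicate 1 was 1.92-fold higher, and 2.15% of the main peaks had a log2 ratio at least as far from 0. The second main peak, at -381 bp, overlapped the first and had a signal of 10.3 and rank 1857, and the highest peak that overlapped it in each replicate's ranked list was the same one as for the first. Among the 116 main peaks with a signal under 20, a limit chosen after the values were seen, 114 overlapped another main peak. The divergent gene fbxa-90, an F-box gene, starts 1139 bp away, and the higher summit fell at -962 bp from it.

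The bases around the higher efl-1 summit are shown because they hold letters of an E2F site. They run over chrV:16965777-16965927 (plus strand, WBcel235, which is the ce11 assembly), and the summit is base 76. The capitals mark, from the left, TTTGAA near the first base, then CGCAGA across the summit, then a run GTGGAGCGC that recurs in peaks shown further on. The last capitals are the reverse complement of the E2F word TTCCCGC.

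efl-1: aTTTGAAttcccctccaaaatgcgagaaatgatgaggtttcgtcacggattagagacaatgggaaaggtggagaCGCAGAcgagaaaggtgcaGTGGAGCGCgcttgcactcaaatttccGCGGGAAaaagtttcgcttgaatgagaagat

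The MuvB gene lin-54 (WBGene00003037, chromosome IV, plus strand) encodes the subunit that binds DNA through cysteine-rich CXC domains, and it had the highest peak of the 8 genes. The peak at chrIV:13240575-13240776 had a signal of 433 and ranked 60 of 1927. It had 236 in replicate 1, rank 55 of 959, and 203 in replicate 2, rank 64 of 1141. The replicates differed by 1.16-fold, and 58.7% of main peaks differed by at least as much. The summit lay at -361 bp from the nearest of the 3 lin-54 starts and at -32 bp from rpl-12, a gene of the large ribosomal subunit that starts 393 bp away on the other strand. In both replicates' own lists the summit was at -369 bp from lin-54 and -24 bp from rpl-12. All 3 summits were therefore nearer to the ribosomal protein gene.

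The gene lin-9 (WBGene00002998, chromosome III, minus strand) encodes a MuvB scaffold subunit and, like lin-52, had a main peak that lay in the promoter of no other gene. It lay at chrIII:8904205-8904372 with a signal of 286 and rank 128. Replicate 1 had 152 (rank 114 of 959) and replicate 2 had 129 (rank 153 of 1141), a ratio of 1.17. The 3 summits lay at -157, -151 and -164 bp. The next gene upstream is unc-32, a subunit gene of the vacuolar proton pump, whose start is 1484 bp from that of lin-9, beyond the reach of a promoter at this summit.

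The lin-54 and lin-9 peaks are shown because the same letters recur in both. For lin-54 the bases run from the first base beyond rpl-12 to the end of the peak, chrIV:13240652-13240776, with the summit at base 32. For lin-9 they are the whole peak, chrIII:8904205-8904372, with the summit at base 84. Both are the plus strand of WBcel235. Capitals mark TTTGAA, its reverse complement TTCAAA, and GTGGAGCGC.

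lin-54: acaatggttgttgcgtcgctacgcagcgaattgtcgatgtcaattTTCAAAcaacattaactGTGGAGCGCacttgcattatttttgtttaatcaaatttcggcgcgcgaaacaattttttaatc

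lin-9: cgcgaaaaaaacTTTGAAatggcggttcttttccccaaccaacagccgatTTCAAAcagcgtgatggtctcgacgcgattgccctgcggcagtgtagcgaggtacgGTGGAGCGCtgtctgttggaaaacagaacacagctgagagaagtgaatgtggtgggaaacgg

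The gene lin-52 (WBGene00003035, chromosome III, minus strand) encodes a small MuvB subunit and had the weakest of the 6 peaks when each gene is given its highest. The peak at chrIII:9824718-9825041 had a signal of 80.0, rank 1444 and a score of 905, the lowest score among the DREAM genes in the main list, whose minimum was 830. Of the genes with no main peak, dpl-1 came closest, and its score of 89 was far below that minimum. Replicate 1 had 36.0 and passed its own threshold at rank 918 of 959. Replicate 2 had 42.2, with a score of 411, and did not pass. The signal was thus higher in the replicate whose peak did not pass, and the 2 differed by 1.17-fold. The main summit lay at -130 bp, replicate 1's at -47 bp and replicate 2's at -112 bp.

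Upstream of lin-52, the gene ZK632.9 ends 126 bp away on the same strand. The main summit fell 4 bases past the gap, in the last exon of ZK632.9. ZK632.9 had a main peak of its own, at -703 bp from its start, with a signal of 122. The gap is shown as the AT-rich counterpart of the peaks above: chrIII:9824751-9824876, plus strand, with a GC content of 29.4% and no capitals because none of the searched letters occur.

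lin-52: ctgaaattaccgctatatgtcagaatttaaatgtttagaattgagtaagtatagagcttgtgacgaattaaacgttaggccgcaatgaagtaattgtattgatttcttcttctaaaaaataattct

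The gene lin-37 (WBGene00003022, chromosome III, minus strand), a further MuvB subunit gene, had no promoter peak in any list, ranked lists included. The nearest summit in replicate 2's ranked list lay 3527 bp past its start and had a signal of 16.9. In replicate 1's ranked list it lay 7826 bp past the start, with 13.7. The nearest main summit was at -81543 bp. In worms, closely spaced genes on 1 strand can be transcribed together from a single upstream promoter, so the genes before lin-37 were also read. ZK418.5 ends 60 bp before the lin-37 start on the same strand, with ZK418.13 behind it, and neither had a promoter peak in any of the 7 lists used.

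The gene lin-53 (WBGene00003036) encodes a histone-binding protein of the RbAp46 and RbAp48 family that also serves other chromatin complexes. Its peak, at chrI:9619896-9620090, had a signal of 348 and ranked 84. Replicate 1 had 204 (rank 68 of 959) and replicate 2 had 149 (rank 116 of 1141). Replicate 1 was 1.37-fold higher, and 27.2% of main peaks differed by at least as much. The summit lay almost midway between 2 divergent starts 467 bp apart, at -240 bp from lin-53 and -227 bp from nra-2. In replicate 2 it lay at -247 bp from lin-53. The next gene after lin-53, rba-1, a relative of lin-53, begins 88 bp further on the same strand and had no peak in a thresholded list.

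**Figure D2:**
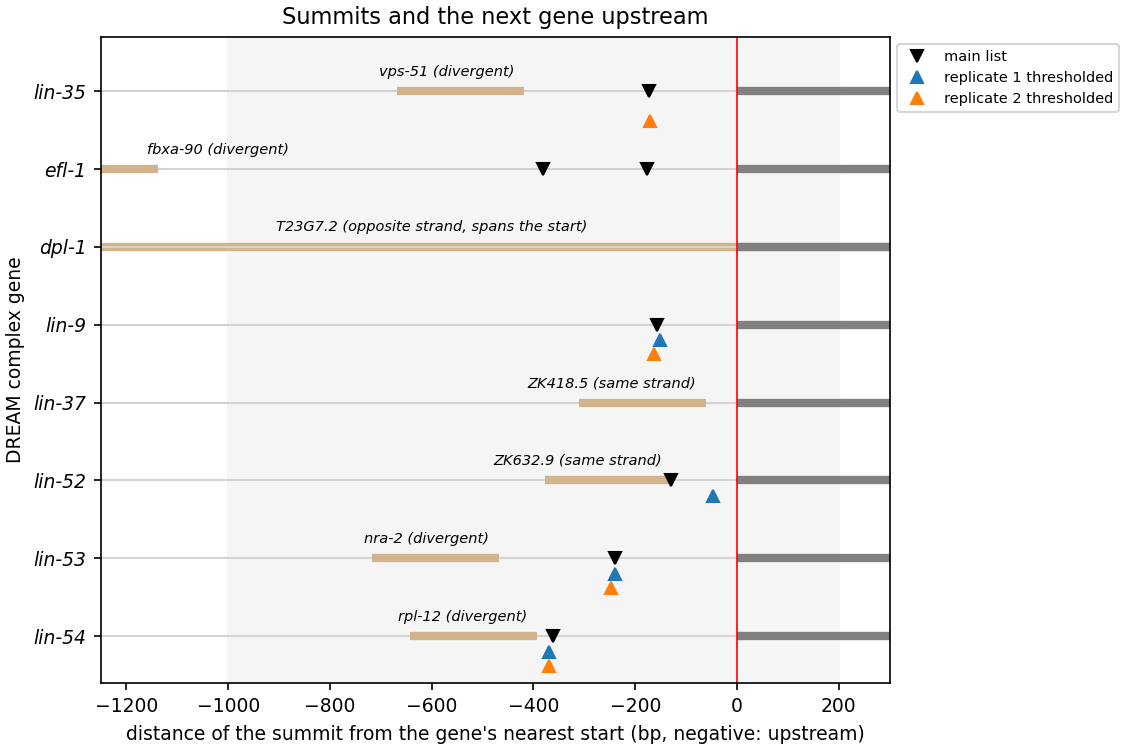
Distance in bp from each DREAM gene's start (red line at 0, gene body in grey) to its promoter summits in the main list (black), replicate 1's thresholded list (blue) and replicate 2's thresholded list (orange); tan marks the near end of the next gene upstream, or the gene that spans the start of dpl-1, and the shaded area is the promoter window. Main summits fall between -130 and -381 bp, and that of lin-54 sits beside rpl-12.

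All 7 main summits at the 6 genes lay between -130 and -381 bp from the DREAM gene, and no main summit lay in the body of any of the 8 genes. Over the whole main list, 453 of 996 promoter summits (45.5%) lay 100 to 400 bp upstream of the nearest start. That share is counted from the nearest start of any protein-coding gene, so the 2 measures differ. By the nearest start, the lin-54 summit lay at -32 bp, outside this range, and the lin-53 summit at -227 bp. For lin-35, efl-1, lin-53 and lin-54 the window of a divergent gene held the same summits. Of all main promoter summits, 28.2% lay in the promoters of 2 or more genes. When each summit was given only to the gene with the nearest start, lin-35, efl-1, lin-9 and lin-52 kept theirs, 4 of 8, beside 4.36% of all genes, and lin-53 and lin-54 lost theirs to nra-2 and rpl-12. ChIP-seq does not say which gene of a pair a bound site serves.

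**Figure D3:**
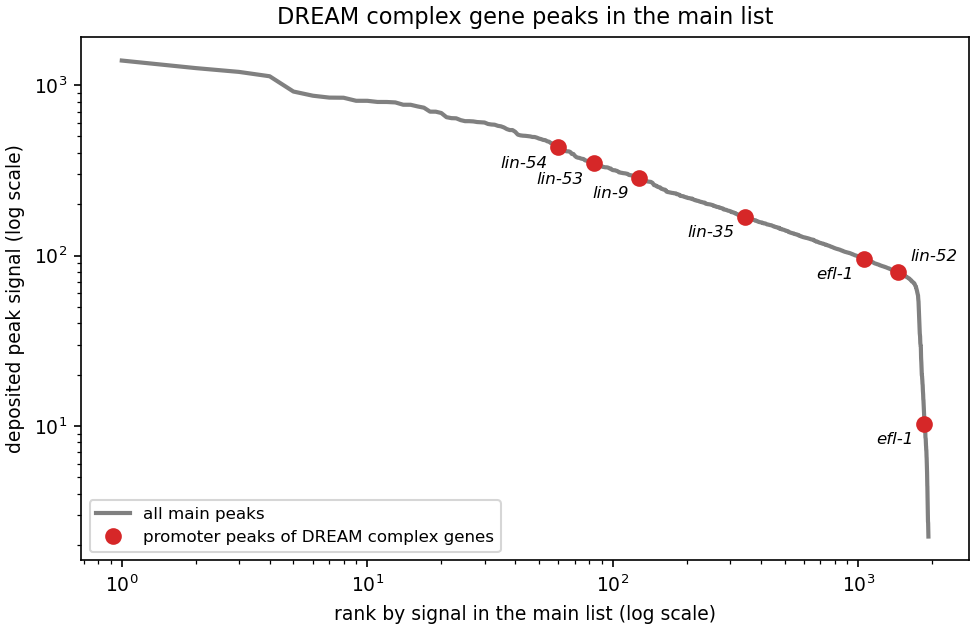
Deposited signal against rank in the main list (both axes log) for all 1927 peaks (grey line) and the 7 promoter peaks of DREAM genes (red). The peaks of lin-54, lin-53 and lin-9 rank 60, 84 and 128, that of lin-35 ranks 345, and those of efl-1 and lin-52 lie past rank 1000.

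By signal the 6 genes spanned much of the main list. The peaks of lin-54, lin-53, lin-9 and lin-35 were above 143.5, the upper quartile of the main list, while those of efl-1 and lin-52 were below its median of 101. The 3 highest were also narrow, at 202, 195 and 168 bp, while the others had 324 bp, the width of 84.0% of main peaks. Narrow peaks were common at this height: 84.7% of the 150 highest main peaks were under 324 bp, against 8.16% of those below.

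**Figure D4:**
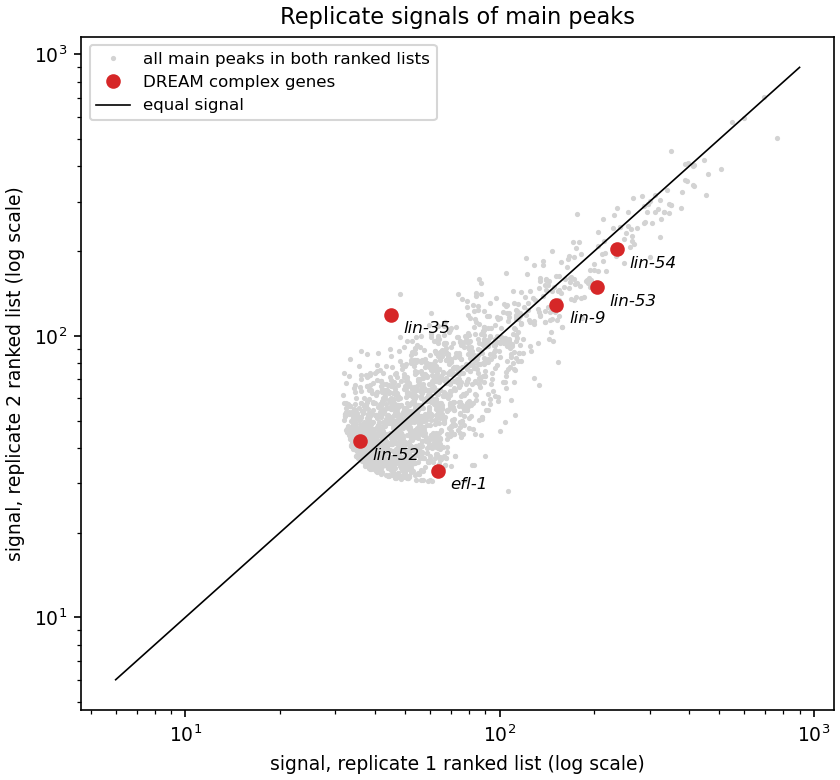
Signal in replicate 2's ranked list against that in replicate 1's (both axes log) for the 1904 main peaks with a peak in both (grey) and the DREAM genes (red); the line marks equal signal. The points of lin-54, lin-53, lin-9 and lin-52 lie among the other peaks, while lin-35 lies well above the line and efl-1 below it.

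By rank in the main list and both ranked lists, the gene most like lin-35, efl-1, lin-53 and lin-54 was in each case the divergent partner, because the peak is the same. The next gene was iff-2, a translation factor gene, for lin-54 (signal 431, a summed rank difference of 0.0874% of list length over 3 lists and 1139 genes compared) and F59C6.18 for lin-53 (350.3, 0.0825%). For lin-9 the closest were Y54G11A.2 (289, 0.166%) and emb-1 (290, 0.252%). For lin-52 they were ccch-3 (80.0, 0.992%) and nrsn-1 (79.7, 2.02%). The next gene for lin-35 was W08E12.7 (169, 2.18%) and for efl-1 it was pfkb-1.1 (97.1, 3.37%), both matches being looser.

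Letters known from DREAM sites in other animals were searched on both strands. LIN54 homologues bind the cell cycle genes homology region, searched here as TTTGAA and, in its other common form, as TTCGAA. The first of these forms lay within 50 bp of the highest summit at lin-54, lin-53 and lin-9, 3 of 6 genes, against 12.1% of all main summits, and within 150 bp at 4 of 6, against 42.0%. Its letters are common, being present in 62.5% of all 300 bp promoters (250 bases before and 50 after a start). Among the DREAM genes' own 300 bp promoters, efl-1, lin-9, lin-53 and lin-54 held it. So did those of dpl-1 and lin-37, which had no main peak, while those of lin-35 and lin-52 did not. The copies in the promoters are not always those near the summits. The lin-54 summit lay at -361 bp, and the 250 bases before the start do not reach its peak, so its promoter copies are other sites. At lin-53 the copy within 50 bp of the summit also lay beyond the 300 bp promoter. The second form lay within 150 bp of none of the 6 (15.8% of main summits, 18.2% of promoters). Among the DREAM genes' own 300 bp promoters, that of lin-37 alone held it.

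For the E2F site, only the forms TTCCCGC and TTGGCGC were searched, so other forms may be present in the same peaks. TTCCCGC lay within 150 bp at efl-1 and lin-53, 2 of 6, against 5.71% of main summits and 3.22% of promoters. It was 45 bp from the summit at efl-1, where it began within 50 bp but ended beyond. TTGGCGC lay within 150 bp at lin-54 alone, 58 bp before the summit and inside the first exon of rpl-12 (6.18% of main summits, 2.17% of promoters). CGCAGA was searched because it was already known to be frequent at main summits (13.2% within 50 bp), and it was present at efl-1 alone, across the summit (25.9% of main summits within 150 bp, 9.09% of promoters).

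The GC content of the central 100 bp was 57% at lin-9 and lin-53, 53% at the higher efl-1 peak, 48% at lin-35, 45% at lin-54 and 26% at lin-52. The median of all main peaks was 48%, and 99.2% of them were at or above the value of lin-52.

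Genes that work with DREAM or under it were counted in 5 lists of 58 genes in all. Among 13 other class B synMuv genes and their chromatin partners, 4 had a main promoter peak, against 5.77% of all genes. They were lin-15B (signal 93.2, -987 bp), smo-1, the SUMO gene (88.0, -518 bp), mep-1, a zinc finger partner of the NuRD remodeller (84.9, -173 bp), and lin-13, a zinc finger gene (62.4, -771 bp). All 4 signals were below the main median of 101, and of these genes only lin-15B had a peak in a replicate's own list, that of replicate 2. None of 4 class A genes had a main peak.

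Of 12 other E2F and G1 regulators, 2 had a main promoter peak, against 5.77% of all genes. The F-box gene lin-23 (103, -935 bp) was in both replicates' own lists. The cyclin E gene cye-1 (99.1, -592 bp) had a summit nearer to pqn-21, at -56 bp, and was in the list of replicate 2 alone. Of 23 replication and mitosis genes, 4 had one, against the same 5.77%. They were rpa-2 of replication protein A (846, rank 7, -664 bp), the replication clamp gene pcn-1 (274, -272 bp), cdc-6 of origin licensing (89.7, nearer to acin-1) and mcm-4 of the replicative helicase (80.4, -145 bp). Both replicates' own lists held rpa-2 and pcn-1 and neither held cdc-6 or mcm-4. None of 6 germ granule genes, pgl-1, pgl-3, glh-1, glh-2, glh-4 and deps-1, had a main peak. With a share of 5.77% over all genes, 0 is an ordinary count for lists of 4 or 6 genes.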

How the data were processed

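ChIP-seq peaks were taken from the authors' deposited lists on ce11, per the labels and the deposited notes. The authors' signal and score were used as deposited, and no source used here gives the signal's scaling, the aligner, the peak caller or the read depth. Per the deposited notes, an extra input file went into the thresholded lists and not into the ranked ones. The control named in the labels was not analysed here. Summits were set against protein-coding transcript starts of the Ensembl annotation, release 115 (WBcel235, same assembly as ce11); in worms such a start can be a trans-splice site, not the true start of transcription. Peaks were ranked by signal within a list. For replicate ratios, the highest overlapping ranked peak (1 bp or more) of each replicate was used. Assignment was tested on simulated data. The members and lists were chosen with earlier results of these data known. Named genes were the members, genes sharing or nearer to their summits, listed genes with a main peak, and the 2 closest in rank for each member. Alternatives were other lists, windows and assignment rules. With 1 group and no control, no test was made. Python 3.11.15, numpy 2.4.6, pandas 2.3.3 and matplotlib 3.10.9 were used.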

Additional observations from a re-analysis of the deposited data

How the results depend on the processing

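The count of DREAM genes with a promoter peak was 6 in the main list and stayed at 6 with the narrower promoter (500 bp upstream to 100 bp downstream), the wider one (2000 bp to 500 bp) and any base of the peak in place of the summit. It was 4 with the second pooled list, with the 50% of main peaks of highest signal, with each replicate's own thresholded list and with the nearest start. In this section, a replicate left out means that the other replicate's own thresholded list was used. Peaks were not called again, so the counts for DREAM genes repeat those given above. It was 3, lin-9, lin-53 and lin-54, with main peaks found in both replicates' own lists. For the changed windows, any base of the peak, the highest 50% and peaks in both lists, no share of all genes is given. The counts at these settings therefore cannot be set against a background. The median rank of the highest peaks was 12.3% of the main list and 5.39% of the second pooled list, where efl-1 and lin-52 are missing, and 9.5% to 11.8% with 1 replicate left out. The 2 genes with a summit nearer to another start stayed 2 with all gene biotypes. Of the class B synMuv list, 4 became 2 with the second pooled list and 0 to 1 with 1 replicate left out. Of the E2F and G1 list, 2 became 1 with the nearest start and 1 to 2 with 1 replicate left out. Of the replication and mitosis list, 4 became 2 with either replicate left out. The class A and germ granule counts were 0 in the main list, in the second pooled list, with either replicate left out and with the nearest start, the settings run for them. The causes of these shifts were not tested. No paired analysis was possible because there was 1 group. Depth is unknown, so a missing peak may be below detection.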

Other observations

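The peaks of efl-1, lin-54 and lin-9 contained the same 9-base run, GTGGAGCGC, on the genome's plus strand. In plus-strand coordinates the run began 18, 31 and 23 bp after the summit. The genes efl-1 and lin-9 are on the minus strand and lin-54 is on the plus strand. Relative to the DREAM gene, the run is therefore reversed and upstream of the summit at efl-1 and lin-9, but not at lin-54. The lin-54 summit is nearer to rpl-12, which is on the minus strand. Relative to rpl-12, the run is reversed and upstream there as well. GTGGAGCGC was the only 9-base run found within 100 bp of the highest summit in 3 or more of the 6 genes, and it was noticed in the sequences and then counted. It occurred within 100 bp of 27 of 1927 main summits (1.40%), of 9 of the 150 highest (6.0%), and in 0.476% of all 300 bp promoters. The 27 include the peaks of efl-1, lin-54 and lin-9, in which the run was noticed, and the 9 include those of lin-54 and lin-9. Over the 16 bases that start at this run, efl-1 and lin-54 were identical at 15 positions, while lin-9 was identical to each at 10. The first 9 of these 16 bases are the run itself, so their identity was fixed by the choice of the run. Only the bases after the run were free to differ, and there lin-9 had little in common with efl-1 or lin-54. These are descriptions of printed letters, and which protein binds there was not tested.

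Of the 276 main peaks with no overlap in the second pooled list (14.3%), 207 were among the 500 with a score under 1000, the class that includes efl-1 and lin-52. Of the 1427 main peaks with a score of 1000, 4.84% had no overlap there.

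Genes that start within 200 bp of the end of a gene on the same strand, like lin-37 and lin-52, had a main promoter peak in 74 of 1907 cases (3.88%), and other protein-coding genes in 1078 of 18061 (5.97%). The distance was chosen after the positions of lin-37 and lin-52 were seen.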
